A study of Mus musculus with 29 samples.

Results

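The expression of 10 genes of IGF and insulin signalling was examined in the tibialis anterior (TA) muscle of mice aged 6m, 24m and 28m. The genes are the ligands Igf1 and Igf2, the receptors Igf1r and Insr, the receptor substrates Irs1 and Irs2, and the binding proteins Igfbp3, Igfbp4, Igfbp5 and Igfbp6. The rule that chose them uses gene symbols and no measured value, though earlier results of these data were known when it was set, and all 10 were found among the 22537 gene symbols of the count table. Poly-A RNA of the whole TA was sequenced from male C57BL/6 mice from the colony that the National Institute on Aging keeps for aging research, and the 3 ages held 7 (6m), 7 (24m) and 8 (28m) animals. The sample labels call the oldest mice 28 months or older. The 24m mice were sequenced in the first run with libraries of the 7 mice at 6m, and the 28m mice in the second run with new libraries of those same 6m mice. No mouse carried an engineered allele or received a drug or other intervention according to the labels and methods. The muscles were taken after tests of physical function, among them treadmill and voluntary wheel running. Age and run are the only labelled differences between the 4 groups of libraries. Each age is therefore compared within its own run, and both comparisons rest on the same 6m animals. Mice are numbered within their age group, and a number at 6m marks the same mouse in both runs.

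IGF-1 and IGF-2 are growth factors that activate the IGF-1 receptor, and insulin activates the closely related insulin receptor. Both receptors are tyrosine kinases that phosphorylate the docking proteins IRS-1 and IRS-2, which recruit PI3 kinase and lead to Akt, glucose uptake, protein synthesis and the restraint of Foxo factors. IGF binding proteins hold IGFs outside the cell and set how much ligand reaches the receptor. In skeletal muscle the pathway is known for its part in growth, regeneration and glucose uptake, and much of the IGF-1 and of the binding proteins comes from cells between the fibres.

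Total counts were between 17633475 and 33499162 per library with a median of 24250878, and a member had at least 50 counts in every library. The muscle label was borne out by Acta1 and Ckm, which encode skeletal actin and muscle creatine kinase and had means of 29450 and 23700 CPM (read counts relative to library size) at 6m in the second run. CPM values here use TMM scaling, which assumes that most genes do not change, and a fold change is given as log2 with its standard error (SE). The libraries differed in how counts depended on gene length. The length slope of a library, which is the change of log2 expression against the mean of all 29 libraries for each 10-fold increase in exonic length over 12884 genes, lay between 0.354 and 0.482 at 6m in the second run and between -1.231 and 0.237 at 28m. In the first run it was -0.668 for 6m mouse 4 and -1.417 for 24m mouse 4, and between -0.017 and 0.558 for the other 12 libraries. These values are given beside the members they touch, and those libraries were left out where their effect is stated. P-values measure the spread between the sequenced samples.

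At 28m, 5 of the 10 genes were lower than at 6m and none was higher, in the quasi-likelihood test of edgeR, with p-values adjusted (Benjamini-Hochberg) over 12994 genes. The genes that fell were both receptor substrates Irs1 and Irs2, the insulin receptor Insr, the ligand Igf1 and the binding protein Igfbp5. Igf2, Igf1r, Igfbp3, Igfbp4 and Igfbp6 did not pass the test. Over all genes tested, 47.3% passed at 28m, 22.9% as lower and 24.3% as higher. The median log2 fold change of the 10 genes was -0.38, beside 0.01 over all genes tested. Irs2 alone also passed the study's limit for a DEG, which asks besides for a log2 fold change of 1 or more in size. Since whole muscle was sequenced, fewer cells that express a gene and less of its RNA per cell cannot be told apart.

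**Figure D1:**
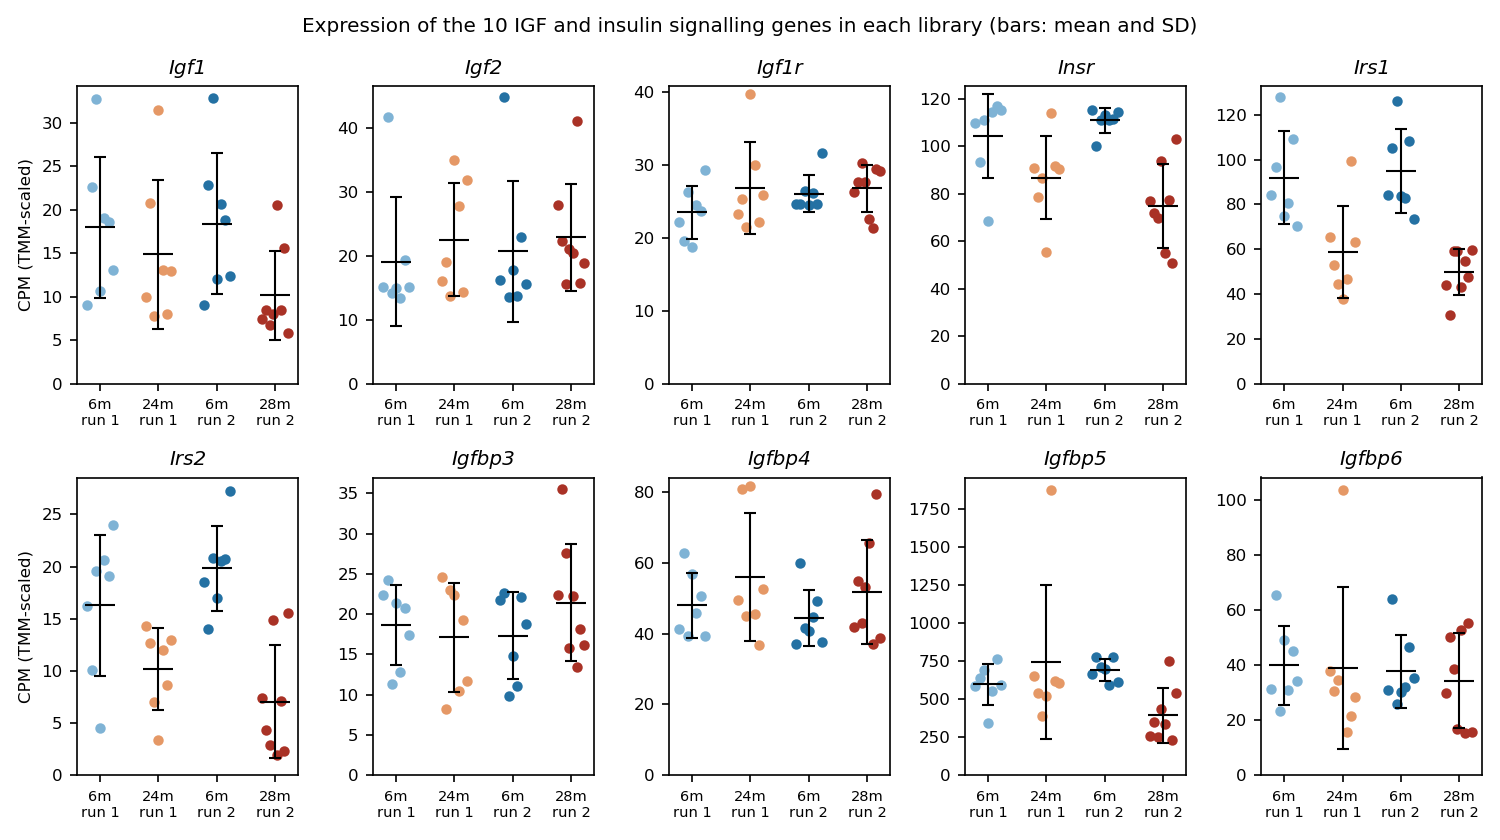
TMM-scaled CPM of each gene in each of the 29 libraries, by age and run, with linear axes that start at 0; points are libraries and bars the mean and SD. Irs1 at 28m lies between 30.5 and 59.5 CPM, below all 6m libraries of the same run, and a single 24m library stands at 1876 CPM for Igfbp5.

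Irs1 encodes the IRS protein known for carrying the insulin signal in muscle. It lies at chr1:82233101-82291416 on the minus strand (GRCm38, GENCODE M21), with an exonic length of 9144 bases. On the opposite strand the annotation places Gm9747, which shares 2822 of these bases and is not in the count table, and the strand setting of the counting is not stated, so reads from those bases could belong to either gene. Irs1 expression was lowest at 73.5 CPM, with a median of 84.2 and a highest value of 126 in the 7 mice at 6m. At 28m it was lowest at 30.5 CPM, with a median of 51.2 and a highest value of 59.5 in 8 mice. The 2 ages did not overlap, a separation in the lower direction seen in 6.18% of all genes tested. This was a log2 fold change of -0.96 (SE 0.15, adjusted p = 0.000474), from 94.9 ± 18.7 to 49.7 ± 10.4 CPM (SD, n = 7 and n = 8). Irs1 was lower in all 24 alternative analyses with an adjusted p between 9.78e-08 and 0.00362.

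Irs2 encodes the second IRS protein of muscle, and its transcription is known to be restrained by insulin and raised by Foxo factors in liver. It lies at chr8:10984681-11008458 on the minus strand, with 6323 exonic bases, of which 162 overlap 9530052E02Rik on the opposite strand. The same doubt holds for reads from those bases. At 6m the lowest value was 14.02 CPM, the median 20.5 and the highest 27.3. At 28m the lowest was 1.92, the median 5.69 and the highest 15.5. Mice 4 and 8 at 28m, at 14.9 and 15.5 CPM, fell inside the 6m range and the other 6 under it. Irs2 had a log2 fold change of -1.51 (SE 0.39, adjusted p = 0.00622), the largest fall of the 10 genes. It was also the member that varied most between mice at 28m, with a coefficient of variation of 77.3% against 20.7% at 6m.

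Because both IRS genes fell at 28m, their promoter windows are shown. RefSeq windows of 300 bases (GRCm38.p6, 250 bases before to 50 after a gene's start) were found for 9 of the 10 genes, and not for Insr. Both strands were searched for the insulin response core CAAAACA, the forkhead core GTAAACA and the E-box CACGTG. The Irs1 window is chr1:82291390-82291689 and the Irs2 window is chr8:11008880-11009179, both read on the minus strand from 5′ to 3′ with matches to CAAAACA (as its reverse complement TGTTTTG) and CACGTG in capitals.
Irs1: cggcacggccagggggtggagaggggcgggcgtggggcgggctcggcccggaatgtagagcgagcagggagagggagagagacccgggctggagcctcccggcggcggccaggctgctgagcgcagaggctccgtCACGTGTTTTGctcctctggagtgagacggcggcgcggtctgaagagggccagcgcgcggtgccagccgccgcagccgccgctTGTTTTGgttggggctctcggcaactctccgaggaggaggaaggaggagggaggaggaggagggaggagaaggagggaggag
Irs2: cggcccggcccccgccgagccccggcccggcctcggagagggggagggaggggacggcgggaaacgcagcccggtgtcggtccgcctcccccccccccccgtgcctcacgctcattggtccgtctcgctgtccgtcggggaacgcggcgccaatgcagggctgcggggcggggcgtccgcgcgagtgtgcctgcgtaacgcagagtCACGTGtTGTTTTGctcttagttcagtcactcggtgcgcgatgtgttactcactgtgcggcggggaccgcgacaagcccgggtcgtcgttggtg
The reverse-strand CAAAACA began at -111 and -32 from the RefSeq start in Irs1 and at -37 in Irs2, and the E-box began at -115 in Irs1 and at -44 in Irs2. The RefSeq start lies upstream of the start in GENCODE M21 by 23 bases in Irs1 and by 471 in Irs2, so the Irs2 window precedes the gene as GENCODE places it. In Irs1 the E-box shares 2 bases with the first of these matches. Of all 32851 windows, 6.28% held CAAAACA, 7.15% CACGTG and 0.408% both, and Irs1 and Irs2 were the only members with either. GTAAACA was found in 3.65% of all windows and in none of the members. A match describes letters in the window and is not a measured binding site.

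Insr, the insulin receptor gene, lies at chr8:3122061-3279617 on the minus strand with 13746 exonic bases. It was the least variable member at 6m of the second run (coefficient of variation 4.63%), with values between 99.9 and 115 CPM and a median of 111. At 28m the values ran from 50.9 to 103 with a median of 74.4. Mouse 8 alone at 28m reached the 6m range. The change in log2 was -0.59 (SE 0.13, adjusted p = 0.00248). With a smooth trend in exonic length and GC content removed from each library, it was -0.18 (adjusted p = 0.0753) and no longer passed.

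Igf1r, the IGF-1 receptor gene, lies at chr7:67952827-68233668 on the plus strand and is the longest of the 10 genes, with 16791 exonic bases. Its values were between 24.5 and 31.6 CPM at 6m (median 24.7) and between 21.3 and 30.3 at 28m (median 27.7). The groups overlapped along most of their range, and the log2 fold change was 0.01 (SE 0.09, adjusted p = 0.919). With the length and GC trend removed, the log2 fold change was 0.57 (adjusted p = 0.00443), so its call depended on that choice. Over all genes, 37.6% passed after the trend was removed. The ratio of Insr to Igf1r per exonic length went from 5.23 ± 0.456 at 6m (4.42 to 5.72, n = 7) to 3.45 ± 0.825 at 28m (2.11 to 4.44, n = 8). The ranges of the ratio met only between 4.42 and 4.44.

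Igf1, the gene of the main growth-promoting IGF of adult muscle, lies at chr10:87858265-87937042 on the plus strand with 9904 exonic bases. At 6m it was lowest at 9.09 CPM, with a median of 18.8 and a highest value of 32.9. At 28m it was lowest at 5.82, with a median of 8.23 and a highest value of 20.5. Mice 5 and 7 at 28m, at 20.5 and 15.6 CPM, lay within the 6m range and the other 6 under it. For Igf1 the log2 fold change was -0.89 (SE 0.30, adjusted p = 0.0235). The call was lost without 6m mouse 3, the highest of its group (log2 fold change -0.69, adjusted p = 0.0636), and with the length and GC trend removed (-0.61, adjusted p = 0.146).

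Igf2, the imprinted gene of the fetal growth factor IGF-2, lies at chr7:142650766-142666816 on the minus strand, and Gm49394 of the same strand, which is not in the count table, shares 3596 of its 5723 exonic bases. It was between 13.6 and 44.8 CPM at 6m (median 16.2) and between 15.6 and 41.1 at 28m (median 20.7). The ages overlapped throughout, and the log2 fold change was 0.12 (SE 0.27, adjusted p = 0.732). At 6m, mouse 2 stood at 44.8 CPM, and the next highest mouse at 22.97. The same mouse was highest in the first run, at 41.7 CPM.

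Igfbp5 lies at chr1:72857932-72874884 on the minus strand with 6006 exonic bases, and encodes a binding protein that is also found in the extracellular matrix. It was the most abundant member by a wide margin, from 591 to 776 CPM at 6m with a median of 698. At 28m it was lowest at 229, with a median of 343 and a highest value of 754. Mouse 6 alone at 28m reached the 6m range. Igfbp5 had a log2 fold change of -0.84 (SE 0.22, adjusted p = 0.00708), and -0.71 (adjusted p = 0.0109) with the length and GC trend removed.

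The other binding protein genes did not pass the test at 28m. Igfbp3, the gene of the main IGF carrier of the circulation, lies at chr11:7206086-7213923 and was between 9.88 and 22.7 CPM at 6m (median 18.8) and between 13.5 and 35.6 at 28m (median 20.2), with a log2 fold change of 0.27 (SE 0.22, adjusted p = 0.313). Igfbp4, at chr11:99041244-99054392, encodes a binding protein that is cut by the protease Pappa, and was between 37.2 and 59.9 CPM at 6m (median 41.7) and between 37.1 and 79.3 at 28m (median 48.1), with a log2 fold change of 0.19 (SE 0.16, adjusted p = 0.337). For each of these genes, 2 of the oldest mice exceeded the whole 6m range. Igfbp6, at chr15:102144362-102149511, encodes a binding protein with a preference for IGF-2 and is the shortest member, with 1112 exonic bases. It was between 25.7 and 63.9 CPM at 6m (median 32.1) and between 15.4 and 55.4 at 28m (median 34.02), with a log2 fold change of -0.17 (SE 0.30, adjusted p = 0.646). With the length and GC trend removed the log2 fold change of Igfbp6 was -0.74 and it passed (adjusted p = 0.0216). The mice at 28m formed a low set at 15.4 to 16.9 CPM (mice 4, 6 and 8) and a high set at 29.7 to 55.4 CPM (the other 5), and the low set had the 3 highest length slopes at 28m, -0.095 to 0.237.

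**Figure D2:**
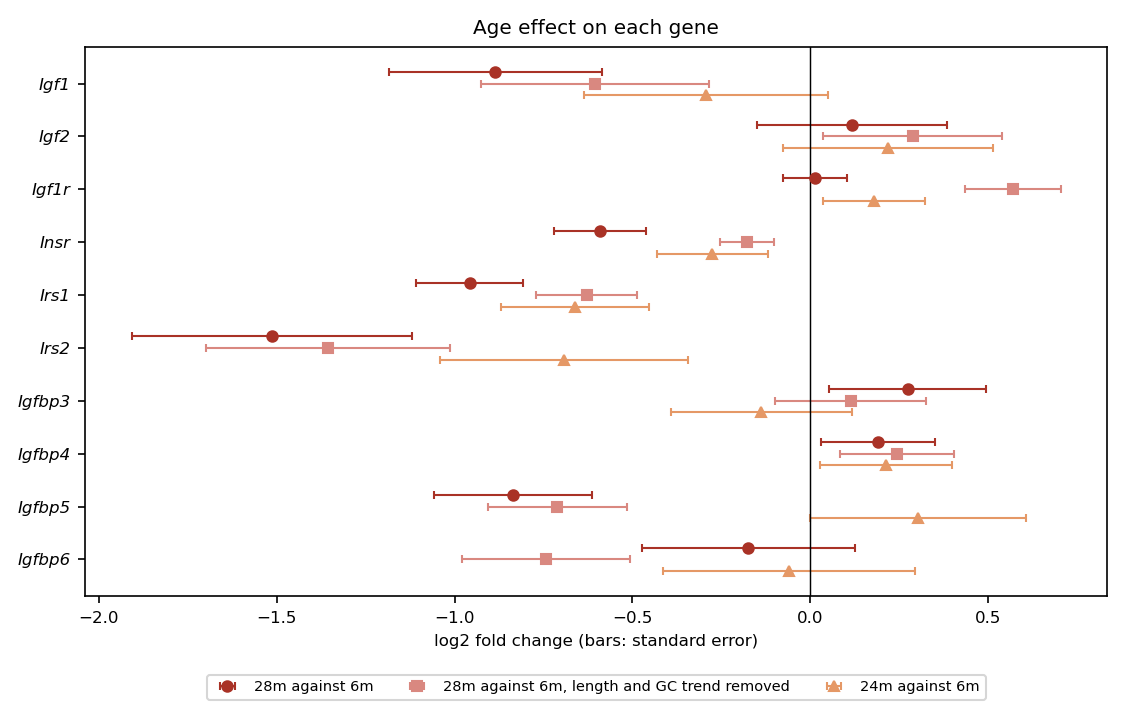
Log2 fold change of each gene at 28m, at 28m with a trend in exonic length and GC content removed, and at 24m, each against the 6m libraries of the same run, with bars for the standard error. Irs1, Irs2 and Igfbp5 are lower at 28m in both analyses, while Insr moves from -0.59 to -0.18 and Igf1r from 0.01 to 0.57 when the trend is removed.

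Removal of the trend left 5 members called at 28m, 4 lower (Irs1, Irs2, Igfbp5 and Igfbp6) and 1 higher (Igf1r), beside 19.7% lower and 17.9% higher over all genes. Irs1 had a log2 fold change of -0.63 (adjusted p = 0.00362) and Irs2 of -1.36 (adjusted p = 0.00656) in that analysis. Against the first-run libraries of the same 6m mice, 2 members were called at 28m, both lower, beside 11.0% lower over all genes in that analysis. They were Irs1 (-0.91, adjusted p = 0.00342) and Insr (-0.50, adjusted p = 0.0339). Irs2 (-1.23, adjusted p = 0.0565), Igf1 (-0.85, adjusted p = 0.0520) and Igfbp5 (-0.62, adjusted p = 0.0706) kept their direction and did not pass. Without the first-run library of 6m mouse 4, an analysis added after the data were seen, the same 5 members as in the second run were called as lower, beside 17.8% of all genes.

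At 24m none of the 10 genes passed edgeR's quasi-likelihood test against 6m of the first run. Over all 13103 genes tested, 11 passed (0.084%; 0.0611% higher and 0.0229% lower). With edgeR 1546 genes had an unadjusted p under 0.05, among them a single member, Irs1 (unadjusted p = 0.00594, adjusted p = 0.267). DESeq2 called 215 genes and limma-voom 12, and none of them was a member. The median log2 fold change of the members was -0.10, beside 0.03 over all genes. Without 24m mouse 4 and 6m mouse 4, which was added after the data were seen, 121 genes and no member were called.

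For the receptor substrates, Irs1 was between 70.3 and 128 CPM at 6m (median 84.4) and between 37.8 and 99.3 at 24m (median 53.1). Irs1 was under the whole 6m range in 6 of 7 mice at 24m, with mouse 6 as the exception. Its log2 fold change was -0.66 (SE 0.21, adjusted p = 0.267). Irs2 was between 4.49 and 24.0 CPM at 6m (median 19.1) and between 3.36 and 14.3 at 24m (median 12.04), with a log2 fold change of -0.69 (SE 0.35, adjusted p = 0.440). All 7 mice at 24m lay under the 6m median of Irs2, and the ranges overlapped. In both groups the lowest Irs2 value was that of mouse 4.

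Of the receptors, Insr was between 68.4 and 117 CPM at 6m (median 111) and between 55.5 and 114 at 24m (median 90.2), with a log2 fold change of -0.28 (SE 0.16, adjusted p = 0.476). Igf1r was between 18.8 and 29.3 CPM at 6m (median 23.7) and between 21.6 and 39.8 at 24m (median 25.4), with a log2 fold change of 0.18 (SE 0.14, adjusted p = 0.594). The lowest Insr value and the highest Igf1r value at 24m were both those of mouse 4. Of the ligands, Igf1 was between 9.05 and 32.7 CPM at 6m (median 18.6) and between 7.81 and 31.5 at 24m (median 12.9), with a log2 fold change of -0.29 (SE 0.34, adjusted p = 0.708). Igf2 was between 13.3 and 41.7 CPM at 6m (median 15.03) and between 13.7 and 34.97 at 24m (median 18.98), with a log2 fold change of 0.22 (SE 0.29, adjusted p = 0.746). The highest Igf1 value at 24m was that of mouse 4, and the next highest was 20.8 CPM. The log2 fold change of Igf1 lay between -0.58 and -0.07 when 1 library was left out, and was -0.67 (adjusted p = 0.258) without the first-run libraries of both mice 4.

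Igfbp5 was between 343 and 765 CPM at 6m (median 595) and between 392 and 1876 at 24m (median 605). The value of 1876 was that of mouse 5, and the next highest mouse at 24m stood at 654. Igfbp5 had a log2 fold change of 0.30 (SE 0.30, adjusted p = 0.662) with that mouse and -0.11 (adjusted p = 0.757) without it. For Igfbp6, mouse 4 stood at 103 CPM at 24m with the other 6 mice between 15.6 and 37.9, and the log2 fold change was -0.06 (SE 0.35, adjusted p = 0.951). Igfbp3 and Igfbp4 had log2 fold changes of -0.14 (SE 0.25, adjusted p = 0.821) and 0.21 (SE 0.19, adjusted p = 0.624). Their ranges at 24m, 8.22 to 24.6 CPM and 36.7 to 81.9 CPM, overlapped those at 6m, 11.3 to 24.3 CPM and 39.2 to 62.8 CPM.

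The difference between the age effect at 28m and that at 24m was tested in all 29 libraries, and none of 13455 genes passed with edgeR (1611 had an unadjusted p under 0.05; limma-voom called 0). Igfbp5 came nearest of the members, with a difference of -1.13 on the log2 scale (SE 0.38, unadjusted p = 0.00642, adjusted p = 0.398). It passed without 24m mouse 4 (difference -1.20, adjusted p = 0.0443, with 1657 genes called), and did not pass without 24m mouse 4 and the first-run library of 6m mouse 4 together (-1.10, adjusted p = 0.0863), where 0 genes were called. For Irs2 the difference was -0.81 (SE 0.55, adjusted p = 0.511) and for Irs1 -0.28 (SE 0.25, adjusted p = 0.616). The fall of the IRS genes at 28m was thus not shown to differ from the values at 24m.

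The 6m mice, sequenced in both runs, gave the spread of a repeated library. No gene of 12884 passed between the runs with edgeR (357 had an unadjusted p under 0.05; DESeq2 called 0), and the members' log2 differences were between -0.10 for Igfbp4 and 0.29 for Irs2. For 6 of the 7 mice the libraries lay close together, and the members differed by -0.20 to 0.48 on the log2 scale. The libraries of mouse 4 differed by 1.89 for Irs2, 1.02 for Igfbp5 and 0.73 for Insr, higher in the second run, and by -0.70 for Igfbp6, -0.54 for Igfbp3 and -0.48 for Igfbp4, lower in the second run. Irs1 and Igf1 differed by 0.17 and 0.18 in the same pair. The length slope of that mouse went from -0.668 to 0.418 between its libraries, and age is the same in both.

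The length slope of the libraries moved with some members and less with others. Over the 15 libraries of the second run, after the mean of each age was subtracted, Irs2 had a Pearson r of 0.927 with the slope (Spearman rho 0.911, permutation p = 0.00089 and 0.00051, adjusted p = 0.0089 over the 10 genes, r = 0.883 without the 2 libraries farthest from the median slope). Insr had an r of 0.880 (rho 0.857, permutation p = 0.00282 and 0.005, adjusted p = 0.0141, r = 0.758 without 2). Igfbp5 had an r of 0.773 (rho 0.721, permutation p = 0.0187 and 0.0197, adjusted p = 0.0467, r = 0.663 without 2), and Igfbp6 an r of -0.799 (rho -0.711, permutation p = 0.00666 and 0.0162, adjusted p = 0.0222, r = -0.702 without 2). Irs1 had an r of 0.272 (rho 0.307, permutation p = 0.427 and 0.291, adjusted p = 0.474) and Igf1r of -0.136 (rho -0.071, permutation p = 0.681 and 0.811, adjusted p = 0.681), and neither passed. In the first run r was 0.893 for Irs2, 0.940 for Insr, 0.570 for Igfbp5, -0.798 for Igfbp6, 0.434 for Irs1 and -0.221 for Igf1r. At 6m of the second run every slope was above every slope at 28m, so slope and age cannot be told apart there.

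**Figure D3:**
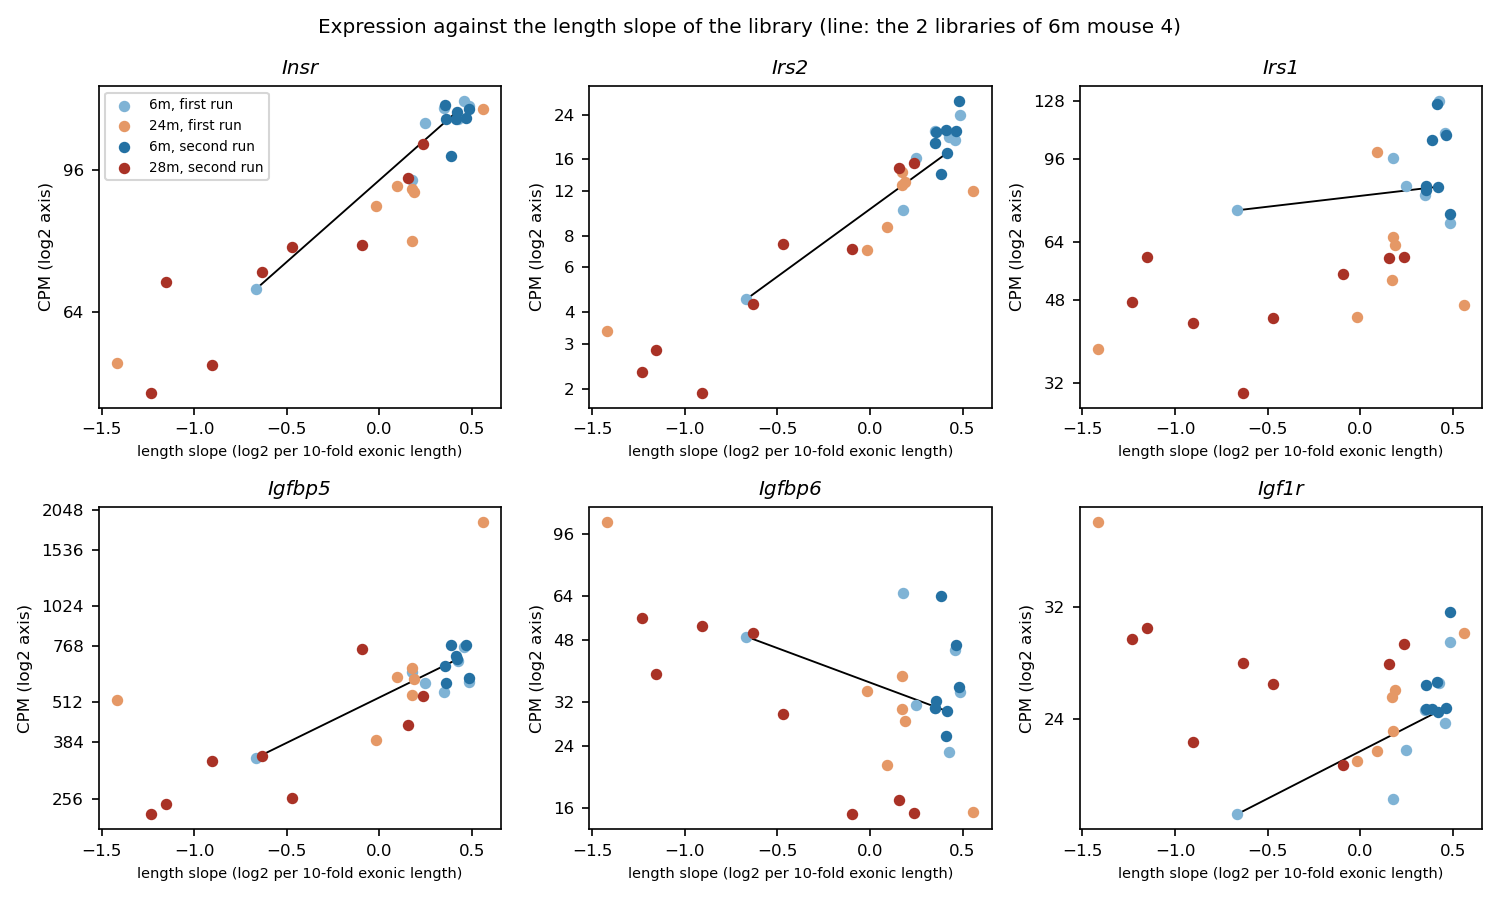
CPM on a log2 axis against the length slope of the library (log2 per 10-fold exonic length) for 6 genes in 29 libraries, coloured by age and run, with a line joining the libraries of 6m mouse 4. Irs2 and Insr are lowest in libraries with the most negative slopes, while Irs1 at 28m stays at 30.5 to 59.5 CPM from slopes of -1.231 to 0.237.

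The 28m mice with the slopes nearest to 6m, mice 4, 6 and 8, are described by their own values. Their Irs1 expression was 59.2, 54.6 and 59.5 CPM, all below the lowest 6m mouse at 73.5. Irs2 was 14.9, 7.10 and 15.5 CPM and Insr 93.8, 77.5 and 103 CPM, so that mouse 8 lay within the 6m range for both, mouse 4 for Irs2 only and mouse 6 for neither. Igfbp5 was 434, 754 and 537 CPM, with mouse 6 inside the 6m range. Igf1 was 7.98, 8.50 and 5.82 CPM, below all mice at 6m.

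Pairs of members were compared over the same 15 libraries after the age means were subtracted, which gave 45 pairs, of which 7 passed. The closest pair was Insr and Irs2, with a Pearson r of 0.935 (Spearman rho 0.893, permutation p = 0.0001 and 0.00154, adjusted p = 0.0045, r = 0.931 without the 2 farthest libraries), and r was 0.873 over the 14 libraries of the first run. Insr and Igfbp6 were opposed, with an r of -0.817 (rho -0.829, permutation p = 0.00022 and 0.00114, adjusted p = 0.00495, r = -0.756 without 2, r = -0.789 in the first run), and the length slope above moved with all 3 of these genes. Igf1 and Igfbp4, neither of which passed with the slope, had an r of 0.709 (rho 0.689, permutation p = 0.00393 and 0.00475, adjusted p = 0.0348, r = 0.828 without 2, r = 0.599 in the first run). Igf1 and Insr had an r of -0.672 (rho -0.661, permutation p = 0.00319 and 0.00403, adjusted p = 0.0348, r = -0.668 without 2), which was -0.263 in the first run. The other pairs that passed joined Igfbp6 with Irs2 (r = -0.821, adjusted p = 0.0348), Igfbp3 (0.677, 0.0411) and Igfbp4 (0.757, 0.0348), with r of -0.655, 0.585 and 0.736 in the first run. Irs1 formed no pair that passed. The part of the slope in these relations was not tested.

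**Figure D4:**
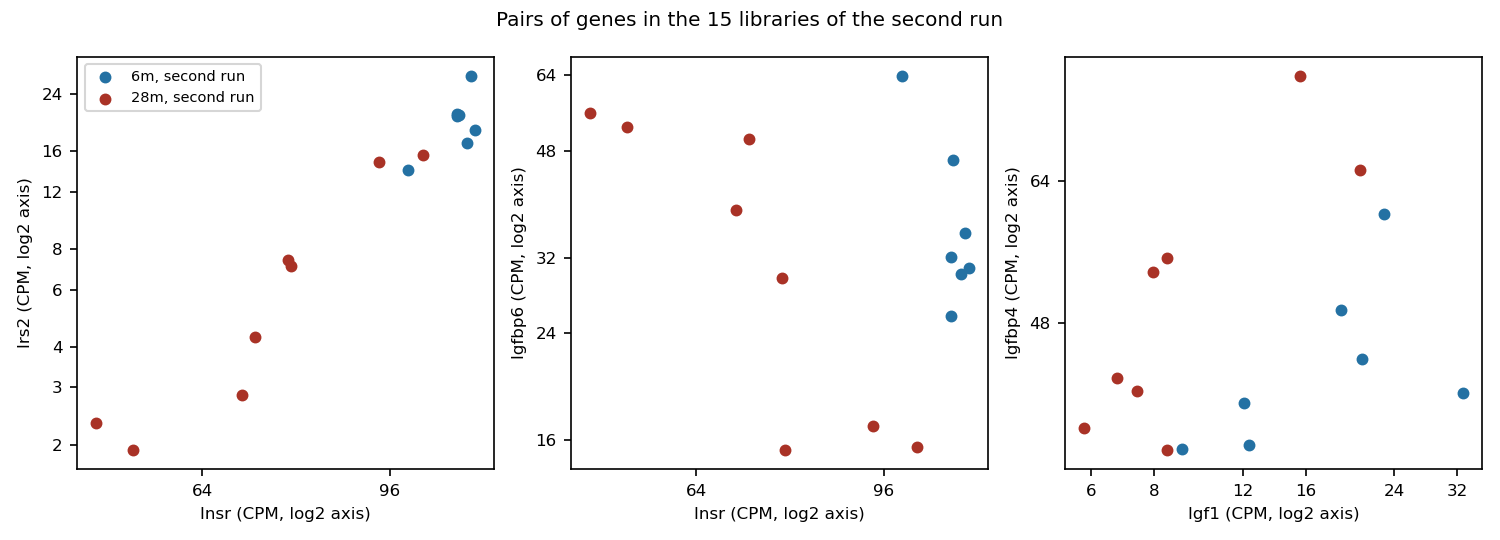
CPM of pairs of genes on log2 axes in the 15 libraries of the second run, coloured by age. Irs2 rises with Insr from 1.92 to 27.3 CPM, and the 2 mice with the lowest Insr, both at 28m, have Igfbp6 at 52.7 and 55.4 CPM.

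The genes most like a member over those libraries, taken by r after the age means were subtracted and described here without a test, differed in how they held in the first run. Insr was most like Map3k7 (r = 0.984, and 0.806 over 14 libraries of the first run), Arhgap5 and Trio, and Irs2 most like Nr2c2 (0.981 and 0.925), Zfp106 and Pcyt1a. Igfbp6 was most like Myoc (0.970 and 0.905), Cd9 and Rnase4, Igfbp4 most like Ppm1m (0.960 and 0.740), and Igfbp5 most like Zdhhc24 (0.951 and 0.785). Igf2 was most like Myh8, the gene of perinatal myosin (0.901 and 0.845), and Igf1 most like Haus8 (0.906 and 0.529). For Igf1r the nearest gene, D1Ertd622e (0.860), had the opposite sign in the first run (-0.356). Irs1 and Igfbp3 were most like Wdr82 (0.831 and 0.646) and Gm889 (0.855 and 0.765).

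Levels were compared between genes as RPKM, the CPM divided by the exonic length in kilobases. At 6m of the second run Igfbp5 was highest at 115 ± 12.2 RPKM (SD, n = 7) and Igfbp6 second at 33.9 ± 11.9, each above the next gene in every library. Irs1 (10.4 ± 2.05) and Igfbp4 (10.1 ± 1.81) overlapped, and Insr followed at 8.07 ± 0.374. Igfbp3 (5.53 ± 1.72), Igf2 (3.61 ± 1.94), Irs2 (3.14 ± 0.649), Igf1 (1.86 ± 0.822) and Igf1r (1.55 ± 0.153) each overlapped the next in order. At 28m (n = 8) Irs1 was sixth, at 5.44 ± 1.14 RPKM beside Insr at 5.45 ± 1.28, and Irs2 ninth at 1.11 ± 0.860. The share of Igfbp5 in the summed RPKM of the 4 binding proteins was 70.3% ± 4.67 at 6m and 55.7% ± 17.7 at 28m, with a range of 34.1% to 82.6% that included the 6m range. Igf1 stood at 0.601 ± 0.400 of the RPKM of Igf2 at 6m and at 0.287 ± 0.184 at 28m, with overlapping ranges (0.295 to 1.40 and 0.119 to 0.582).

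The other genes of the pathway were taken from lists of known function. Among 16 further genes, mainly of IGF ligands, receptors, carriers and regulators, 8 could be tested at 28m, of which 1 was higher and 3 were lower, beside 24.3% higher and 22.9% lower over all genes tested. Igf2bp2, which encodes an RNA-binding protein that binds IGF-2 mRNA, was lower by a log2 fold change of -0.88 (SE 0.31, adjusted p = 0.0266), Igfals, the acid-labile subunit of circulating IGF complexes, by -0.70 (SE 0.17, adjusted p = 0.00379), and Igf2r, the receptor that clears IGF-2, by -0.58 (SE 0.23, adjusted p = 0.0494). Igfbp7, a related secreted protein, was higher by 0.41 (SE 0.16, adjusted p = 0.0437). With the length and GC trend removed, Igfals of these 4 still passed (-0.77, adjusted p = 0.00274), Igf2bp2 (-0.65, adjusted p = 0.108) and Igf2r (-0.29, adjusted p = 0.176) did not, and Igfbp7 turned to -0.09 (adjusted p = 0.594). Mstn, the gene of the growth inhibitor myostatin, named after its values were seen, was the other lower gene in that analysis (-0.79, adjusted p = 0.0367), and stood at -0.44 (adjusted p = 0.173) without the removal. Low-count filtering removed Igfbp2, whose counts were 0 to 6 at 6m and 0 to 78 at 28m. The 78 counts were those of mouse 6, and the next highest mouse at 28m had 25. Without that filter its log2 fold change at 28m was 3.18 (SE 0.92, adjusted p = 0.0145) by edgeR and 3.30 (SE 1.14, adjusted p = 0.0127) by DESeq2. In the first run it had 0 to 9 counts at 6m and 0 to 190 at 24m, with 3.99 (SE 1.10, adjusted p = 0.226) by edgeR without the filter. The 190 counts were those of 24m mouse 4, and the next highest mouse had 91. Igfbp1, Ins1 and Ins2 had at most 2 counts in any library. Growth hormone acts on muscle through its receptor Ghr, Jak2 and Stat5, and 2 of 6 tested genes of this input were lower, Jak2 (-0.67, SE 0.14, adjusted p = 0.00161) and Stat5b (-0.53, SE 0.17, adjusted p = 0.0162), beside the same 22.9% over all genes. Ghr had a log2 fold change of -0.16 (adjusted p = 0.212). Jak2 also passed with the trend removed (adjusted p = 0.00137) and Stat5b did not (-0.39, adjusted p = 0.0765). In that analysis 2 genes of the input were higher and 1 lower, and the higher genes, named after their values were seen, were Stat5a (0.36, adjusted p = 0.0101) and the growth hormone signalling brake Socs2 (0.98, adjusted p = 0.0242).

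Downstream of the receptors, 13 of 31 tested genes were lower at 28m and none was higher, and the median of their log2 fold changes was -0.25. Foxo3, a transcription factor that Akt keeps out of the nucleus, fell from 12.3 ± 1.60 to 5.27 ± 4.44 CPM (SD, n = 7 and n = 8), a log2 fold change of -1.24 (SE 0.47, adjusted p = 0.0380). Sos1, the exchange factor that links the receptors to Ras, fell by 0.80 on the log2 scale (SE 0.15, adjusted p = 0.000928) and Tbc1d1, which governs the traffic of glucose transporter vesicles, by 0.49 (SE 0.13, adjusted p = 0.00654). The glucose transporter Slc2a4 (GLUT4) had a log2 fold change of -0.22 (SE 0.08, adjusted p = 0.0384). Akt1 (0.04, adjusted p = 0.762), Akt2 (-0.15, adjusted p = 0.256), Pik3r1 (0.17, adjusted p = 0.440) and Foxo1 (0.41, adjusted p = 0.0977) did not pass. With the length and GC trend removed, 8 of the list were lower and 2 higher, and Foxo3 no longer passed (-1.06, adjusted p = 0.0502). Sos1 and Tbc1d1 stood at -0.55 and -0.24 there and still passed. The higher genes were Foxo1 (0.73, adjusted p = 0.0188) and, named after its values were seen, the MAP kinase kinase gene Map2k2 (0.51, adjusted p = 0.0174).

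Of 18 genes whose products restrain the pathway, 7 were lower and 2 higher at 28m. Fbxo40, a ubiquitin ligase subunit that targets IRS-1 in muscle, went from 203 ± 13.2 to 86.8 ± 70.2 CPM (log2 fold change -1.24, SE 0.46, adjusted p = 0.0359). The receptor phosphatase gene Ptprf had a log2 fold change of -0.99 (SE 0.15, adjusted p = 0.000381), the lipid phosphatase gene Inppl1 of -0.67 (SE 0.21, adjusted p = 0.0155) and the Akt phosphatase gene Phlpp1 of -0.65 (SE 0.16, adjusted p = 0.00460). All 4 also passed as lower with the trend removed, at -1.18, -0.59, -0.46 and -0.42. The lower genes of the downstream and restraining lists, 13 of 31 and 7 of 18, stand beside 22.9% lower over all genes tested. With the trend removed, 8 of 31 and 6 of 18 were lower beside 19.7% over all genes, and 1 restraining gene was higher.

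Of 14 genes that Foxo factors are known to raise, 7 were higher and 1 was lower at 28m, beside 24.3% higher and 22.9% lower over all genes tested, and the median of the list was 0.32 on the log2 scale beside 0.01 over all genes. Cdkn1a, the cell cycle inhibitor p21, rose by 2.199 on the log2 scale (SE 0.37, adjusted p = 0.000678), from 10.5 ± 4.43 to 48.9 ± 36.4 CPM. Ddit4 (REDD1), which restrains mTORC1, rose by 1.09 (SE 0.23, adjusted p = 0.00217), the translation repressor Eif4ebp1 by 0.82 (SE 0.16, adjusted p = 0.00140) and the protease Ctsl by 0.66 (SE 0.09, adjusted p = 0.000218). These 4 also passed with the trend removed, where 5 of the 14 were higher and none lower beside 17.9% and 19.7% over all genes, and the median of the list was 0.08. Eif4ebp1 was at 0.44 and Ddit4 at 0.73 there. The ubiquitin ligase genes of muscle wasting, Fbxo32 (-0.31, adjusted p = 0.113) and Trim63 (0.26, adjusted p = 0.130), and Pdk4, the kinase that restrains pyruvate dehydrogenase (0.12, adjusted p = 0.736), did not pass, and the lower gene was Fbxo31 (-0.34, SE 0.12, adjusted p = 0.0301). These 4 genes were named after their values were seen. None of the genes in these 5 lists passed at 24m, where Cdkn1a had a log2 fold change of 2.70 (SE 0.61, adjusted p = 0.121), Ddit4 of 0.74 (SE 0.22, adjusted p = 0.237), Ctsl of 0.57 (SE 0.21, adjusted p = 0.346) and Jak2 of -0.60 (SE 0.16, adjusted p = 0.201). No gene passed the test of the difference between the effects at 28m and 24m, so none of these changes was shown to be confined to 28m.

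**Figure D5:**
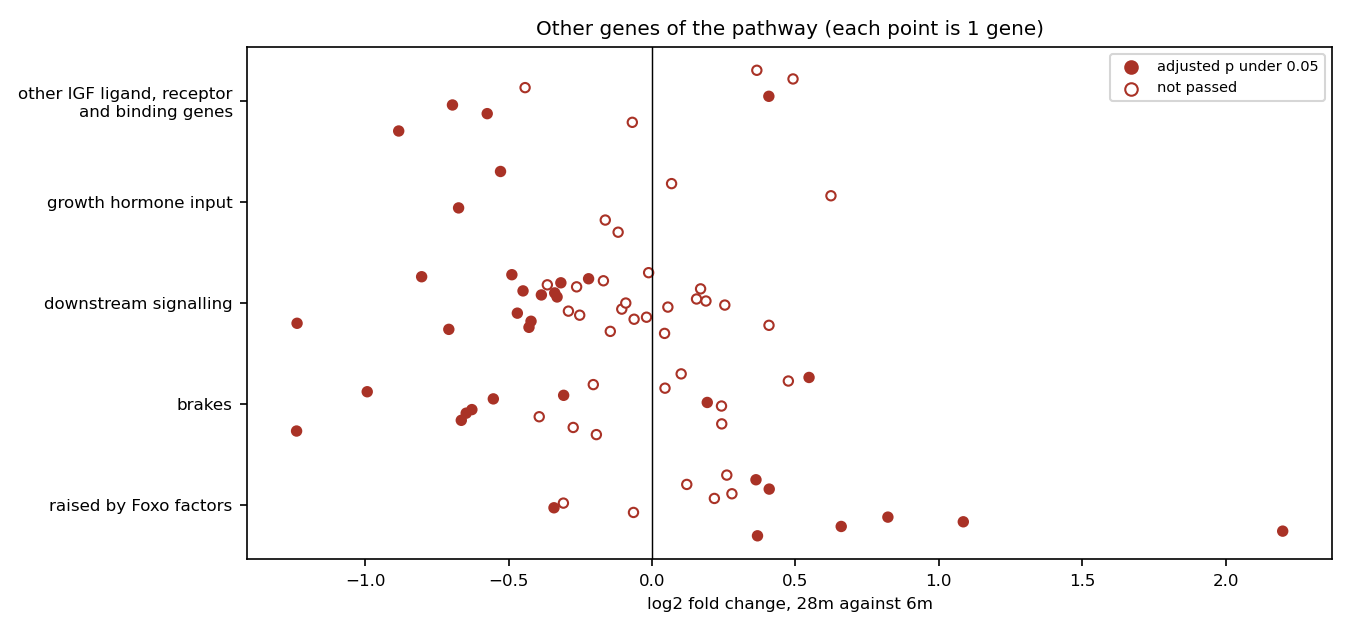
Log2 fold change at 28m of the other pathway genes tested, 1 point a gene, grouped by role and filled where the adjusted p was under 0.05. The downstream genes that passed lie below 0, and 7 of the 8 Foxo-raised genes that passed lie above 0, up to 2.199 for Cdkn1a.

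Markers of other cells in the muscle stand beside 22.9% lower and 24.3% higher over all genes tested at 28m. Of 10 fibroblast markers 5 were lower and 1 higher. The lower genes included Col1a1 (log2 fold change -1.88, SE 0.59), Col3a1 (-1.58, SE 0.59), Col1a2 (-1.24, SE 0.49) and Pdgfra (-0.92, SE 0.19). The higher gene was Ly6a (0.61, SE 0.24, adjusted p = 0.0477). Dcn (-0.15, adjusted p = 0.657) and Lum (-0.11, adjusted p = 0.782) were among those that did not pass. The summed expression of the 10 markers was 739 to 3751 CPM at 6m and 464 to 1703 CPM at 28m. Of 8 endothelial markers 6 were lower and 1 higher. Kdr stood at -1.29 (SE 0.19), Flt1 at -0.93 (SE 0.23) and Cdh5 at -0.87 (SE 0.16), but Cldn5 at 0.73 (SE 0.20). Their sums, 469 to 541 CPM at 6m and 267 to 411 CPM at 28m, did not overlap. Such a separation was seen in 6.18% of all genes tested, a share that holds for single genes and not for sums. The median of this list was -0.56, and -0.30 with the trend removed. Of 7 smooth muscle and pericyte markers 5 were lower and 1 higher. The lower genes included Rgs5 (-1.23, SE 0.36), Notch3 (-1.03, SE 0.21), Myh11 (-0.72, SE 0.18) and Cspg4 (-0.62, SE 0.16). The higher gene was Tagln (0.58, SE 0.18, adjusted p = 0.0169), and Acta2 (0.24, adjusted p = 0.254) did not pass. The summed expression of the 7 markers was 355 to 423 CPM at 6m and 218 to 362 CPM at 28m. Ly6a, Dcn, Lum, Tagln and Acta2 were named after their values were seen. With the trend removed 3, 4 and 4 genes of these lists were lower and none higher, beside 19.7% lower and 17.9% higher over all genes. Of the genes named, Col3a1 (-1.16, adjusted p = 0.140), Col1a2 (-0.66, adjusted p = 0.329) and Ly6a (-0.08, adjusted p = 0.675) no longer passed. Neither did Cldn5 (0.27, adjusted p = 0.145), Cspg4 (-0.09, adjusted p = 0.706) or Tagln (0.17, adjusted p = 0.295). The part of such cells in the lower Igf1, Igfbp5 and Insr was not tested.

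The remaining lists were mixed, and stand beside the same 24.3% higher and 22.9% lower over all genes tested. None of 7 immune markers passed. Tendon, Schwann cell and adipocyte markers had 1 higher of 6 each (among them Scx at 1.07, SE 0.18, and Retn at 1.63, SE 0.58, which had an adjusted p of 0.134 with the trend removed), satellite cells 1 lower of 4 (Pax7 at -1.60, SE 0.43), and the only erythrocyte marker tested did not pass. Of 8 muscle fibre markers Mylpf was higher (0.93, SE 0.16) and Ttn (-0.72, SE 0.16) and Myh4 (-0.48, SE 0.14) were lower, and with the trend removed these stood at 0.32, -0.37 and -0.32, all called, with 1 higher and 3 lower in the list. Of 12 genes that respond to loss of the nerve, 8 were higher and none lower, among them Sln (4.29, SE 0.86), Chrng (3.52, SE 0.81) and Ankrd1 (2.67, SE 0.31). With the trend removed 9 of them were higher and none lower, beside 17.9% higher and 19.7% lower over all genes. No gene of these lists passed at 24m, where the median of the 12 genes that respond to loss of the nerve was 2.75 on the log2 scale beside 1.97 at 28m. At 24m the log2 fold changes were 4.97 for Chrng (SE 1.13, adjusted p = 0.121), 3.10 for Ankrd1 (SE 0.70, adjusted p = 0.121) and 3.79 for Sln (SE 1.02, adjusted p = 0.201). Those of Chrng and Ankrd1 were larger than at 28m and that of Sln was smaller, with a wider error for each. Their 24m values were 8.31 ± 11.8, 204 ± 265 and 37.6 ± 54.9 CPM, so the SD exceeded the mean for each.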

How the data were processed

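Poly-A RNA of the TA was sequenced with 75-base single-end reads. The authors aligned them to mm10 with STAR 2.5.4b and deposited whole-number read counts per gene for 22537 symbols, without normalization. The 10 genes and the gene lists were chosen with earlier results of these data known. Samples were grouped by labelled age and run. The tests used edgeR 4.0.16 under R 4.3.3 (filterByExpr, TMM, quasi-likelihood F test, adjusted p under 0.05 over all genes tested), with DESeq2 1.42.0 and limma 3.58.1 as alternatives. Standard errors were derived from the test. Length and GC content came from GENCODE M21 (GRCm38; 20202 symbols and 1923 synonyms matched, 412 did not), and their trend was removed per library as an offset with mgcv 1.9.3. Log2 CPM used a prior count of 2. Permutation tests were two-sided with 100000 permutations. Other alternatives were RLE and upper-quartile scaling, no filter, at least 10 counts in every library, the other run's 6m libraries, leaving out each mouse, and the mouse as a block. Same-numbered 6m libraries are the same mouse by their titles, and their deviations correlated at 0.213 to 0.809. The difference between the age effects treats these libraries as independent, except with the block. The genes named beside the 10 are up to 4 of each list with the largest change at 28m among those called, and Ghr, Igfbp2, Igfbp7, Igf2r, Akt1, Akt2, Pik3r1, Slc2a4, Foxo1 and Foxo3. A few genes that this rule selects are left out. The fit was tested on simulated data. The series' design text swaps the numbers of 24m and 28m mice, and the labels were used.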

Additional observations from a re-analysis of the deposited data

Results flagged for a closer look

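Of 40 groups of libraries (10 genes in 4 groups), 6 had a highest or lowest library far from the others by Dixon's criterion, where chance flags about 1 in 20. Igf2 of 6m mouse 2 was the highest in both runs, at 41.7 CPM in the first and 44.8 CPM in the second. Igf1r of 6m mouse 7 was the highest of its group at 31.6 CPM in the second run, and Insr of 6m mouse 2 the lowest at 99.9 CPM. At 24m, Igfbp5 of mouse 5 stood at 1876 CPM and Igfbp6 of mouse 4 at 103 CPM, and that mouse also had the most negative length slope of the 29 libraries.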

How the results depend on the processing

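The count of genes called at 28m (6140) fell to 2981 with the first-run 6m libraries, with 2 members in place of 5, and was between 5297 and 6688 without each mouse in turn, with 4 to 5 members. At 24m the 11 genes became 46 with the second-run 6m libraries, 215 with DESeq2, 4 with at least 10 counts in every library, 18 with the length and GC trend removed and 121 without 24m mouse 4 and 6m mouse 4. Without each mouse in turn they were between 4 and 30 (30 without 24m mouse 4; 5, 4 and 4 without 6m mouse 2, 5 and 6). No member was called at 24m in any of these. For the difference between the age effects, leaving out each mouse gave 0 to 1657 genes and 0 to 1 members, the higher numbers without 24m mouse 4. In none of these cases was the cause tested.

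With the mouse as a replicate block, 0 genes and 0 members were called between the 6m libraries of the runs, and 0 and 0 for the difference between the age effects (limma-voom, random block), so the block changed no call. In that analysis Igfbp5 had a difference of -1.09 (adjusted p = 0.102) and Igfbp4 of 0.0058.

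Signs turned only where a member had no call. Without each mouse in turn, the log2 fold change at 28m was between -0.0090 and 0.0632 for Igf1r, -0.060 and 0.437 for Igf2, and -0.300 and 0.0179 for Igfbp6. At 24m it was between -0.108 and 0.411 for Igfbp5 and -0.513 and 0.111 for Igfbp6, and between the 6m libraries -0.0941 and 0.0293 for Igfbp6. The difference was between -0.263 and 0.0489 for Igf2, -0.118 and 0.113 for Igfbp4, and -0.247 and 0.369 for Igfbp6. With the length and GC trend removed, the difference was 0.264 for Igf1r, 0.0285 for Igfbp4 and 0.0354 for Insr, and the change between the 6m libraries was 0.0046 for Igfbp6 and -0.0314 for Irs1. Igfbp4 also turned with limma-voom (0.0059) and upper-quartile scaling (0.0286), and Igfbp6 at 24m with the second-run 6m libraries (0.0075). Without both mice numbered 4 the difference was 0.014 for Igf1r, 0.0993 for Igf2, 0.0676 for Igfbp4 and 0.312 for Igfbp6. Of 240 member values at 28m, 225 kept direction and call, as did 224 of 230 at 24m.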
